A study of Ovis aries with 23 samples.

Results

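The pars tuberalis (PT) is a thin sheet of pituitary tissue around the stalk that carries melatonin receptors. It reads the length of the night from melatonin and passes it to the hypothalamus as thyrotropin (TSH), a hormone of a beta subunit, encoded by TSHB, and an alpha subunit, encoded by CGA. EYA3 is a coactivator of TSHB transcription in PT thyrotrophs, and chromogranin A (CHGA) is a protein of their secretory granules. On long photoperiods (LPs), PT thyrotrophs are known to make more TSH.

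The comparison here was between the first and the last sampling day on LPs: 6 PT samples taken after 1 day of LPs against 6 taken after 28 days, 12 of the 23 samples of the series. The remaining samples, 6 at LP day 7 and 5 on short photoperiods (SPs), were used only to place levels. Animals were neutered male Scottish blackface sheep, and neutering was shared by both groups, whose labels give no age. Total RNA was sequenced from dissected PT, so that fewer cells of a type and less RNA per cell cannot be told apart. All genes with more than 1 CPM, a count scaled to the size of its library, in at least 6 of the 12 samples were compared, 14820 of the 25197 genes with deposited counts. The labels do not say that each sample is a separate animal, so p-values measure the spread between samples.

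Total counts ranged from 307952 in LP day 1 sample 4 to 4413929, and all samples other than LP day 1 sample 4 held at least 1852503. The level of 3 counts, taken as the lowest detectable, was 8.94 CPM in LP day 1 sample 4 and did not exceed 1.52 CPM elsewhere, on the scale of the CPM given here, which covers counting error only. By chi-square, LP day 1 samples 3 and 4 were the most alike pair of a group, with 1.14 per gene, where counting noise alone gives 1. Low depth lowers this measure, and the shallow sample 4 also gave 1.75 with sample 6 and 3.37 with sample 1. The Pearson correlation of log2 CPM was 0.930 for samples 3 and 4, against 0.966 for samples 3 and 6. The difference between samples 3 and 4 exceeded counting noise (p = 2.79e-28, chi-square test across genes), although reads carry no molecular identifiers and copies of 1 molecule can be counted more than once. Both samples were kept, and calls were also made with their counts summed as 1 sample. The melatonin receptor gene MTNR1A was low, at 0 to 13.1 CPM at LP day 1 and 1.35 to 27.5 CPM at LP day 28. It split by sample at LP day 28, with 27.5, 14.5, and 18.9 CPM in samples 1, 3, and 5 and 4.79, 1.35, and 7.02 CPM in samples 2, 4, and 6. At LP day 1 it was highest in samples 1 and 6, at 12.2 and 13.1 CPM, so its level was not read as a measure of PT tissue. Genes of the neighboring pars distalis were present in every sample. Prolactin (PRL) alone stood at 25153 to 211035 CPM at LP day 1 and at 46945 to 242601 CPM at LP day 28 (log2 fold change 0.96, standard error 0.46, edgeR FDR 0.62).

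Between LP day 1 and LP day 28, 32 genes were differentially expressed, 26 higher and 6 lower at LP day 28, which is 0.216% of the tested genes (0.175% higher and 0.0405% lower). The test was edgeR's quasi-likelihood F test, with genes called at a false discovery rate (FDR, Benjamini-Hochberg) under 0.05, and 1185 genes had an unadjusted p under 0.05. Of the 32 genes, 24 differed by more than 2-fold and 12 by more than 4-fold. The 6 LP day 28 samples did not overlap the 6 LP day 1 samples for 23 of them, against 0.526% of all tested genes. Calls were made on these same 12 samples, so nothing is read from this difference. Of the 32, 26 were above 1 CPM in all 12 samples, and BPIFC, KLKB1, CALB1, ARNTL2, GADD45G, and NPSR1 were above it in fewer. The first 4 reached the filter through LP day 28, with at most 2 LP day 1 samples above 1 CPM, and NPSR1 through LP day 1, with 2 LP day 28 samples above it. The median log2 fold change over all tested genes was -0.00012. With LP day 1 samples 3 and 4 summed, 25 genes were called, each of them among the 32. Without LP day 1 sample 2, 59 genes were called, and without LP day 1 sample 3 the number was 19.

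**Figure D1:**
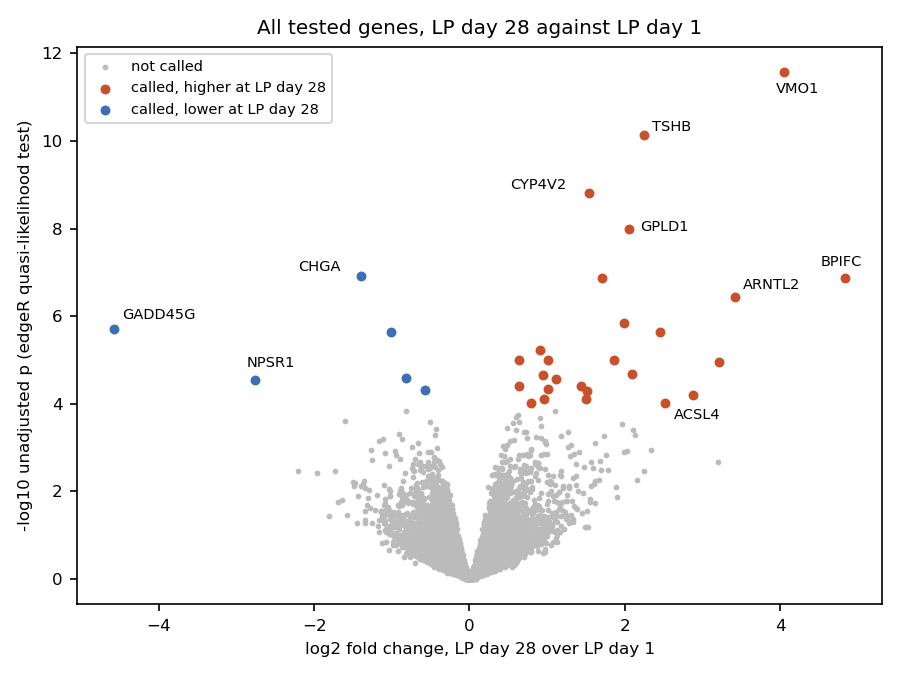
Each point is 1 of the 14820 tested genes, with the log2 fold change of LP day 28 over LP day 1 on the x axis and -log10 of the unadjusted p of edgeR's quasi-likelihood test on the y axis. Red points are the 26 genes called higher and blue points the 6 called lower at LP day 28, and VMO1 and TSHB stand at the top.

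TSHB rose and CHGA fell, whereas no difference in CGA passed the test. TSHB (ENSOARG00000020127) had 173 CPM in the lowest LP day 1 sample, a median of 252, and 398 in the highest, and 921, 1205, and 1579 CPM at LP day 28. Every LP day 28 sample was thus above every LP day 1 sample, and the increase was 4.75-fold (log2 fold change 2.25, standard error 0.18, edgeR FDR 5.51e-07). CHGA (ENSOARG00000013347) went the other way, from 1757, 2889, and 3589 CPM as lowest, median, and highest at LP day 1 to 793, 1007, and 1390 CPM at LP day 28. Again the groups did not overlap, and expression fell by 1.40 on the log2 scale, or 2.64-fold (standard error 0.17, edgeR FDR 2.89e-04). The alpha subunit gene CGA had a median of 9328 CPM at LP day 1, with a range of 3909 to 11604, and a median of 8905 CPM at LP day 28, with a range of 8017 to 10392. Its log2 fold change was 0.07 (standard error 0.19, edgeR FDR 0.97). The study calls the alpha subunit a common subunit, and it also describes a role for CHGA in hormone cells of the pars distalis. Within the PT, however, its antibody staining found CHGA protein only in putative thyrotrophs, and alpha subunit staining unchanged by photoperiod. LHB, a pars distalis gene, stood at 1559 to 8931 CPM at LP day 1 and 2254 to 4238 CPM at LP day 28. Which cells the CGA and CHGA counts came from was not tested. At LP day 1 the TSHB samples were within the range of the SP samples, 47.5 to 666 CPM, and at LP day 28 all 6 were above it.

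Of the 12 tested genes in a list of thyrotroph and photoperiod relay genes, TSHB was the only one called higher and CHGA the only one called lower, and the median log2 fold change of the list was 0.41. Members of this and the later lists could be paired only through the study's own gene tables. Of 1124 tested genes in the study's table of categories, 2.85% were called, against 0.216% of all tested genes. Nothing is read about a list from 1 or 2 calls. EYA3 had 20.5, 44.5, and 75.3 CPM as lowest, median, and highest at LP day 1, and 37.7, 90.8, and 473 CPM at LP day 28. The groups overlapped, and the log2 fold change of 2.03 (standard error 0.54) did not pass (edgeR FDR 0.22). TAC1, which encodes the tachykinin substance P, had 0 to 11.2 CPM at LP day 1 and 3.13 to 45.7 CPM at LP day 28 (log2 fold change 2.16, standard error 0.70, edgeR FDR 0.37). The TSH receptor gene TSHR, the deiodinase gene DIO2, and the pituitary transcription factor genes PITX1 and POU1F1 had log2 fold changes between -0.30 and 0.45, none of which passed. A second list held 9 tested genes of secretory granules and prohormone processing, and CHGA was the only one called, while 6 of the 9 had a positive log2 fold change and the median was 0.27. Its relative CHGB, another granin, had 1762 to 3998 CPM at LP day 1 and 2080 to 3261 CPM at LP day 28 (log2 fold change -0.29, standard error 0.17, edgeR FDR 0.72). The granin-like SCG3 had overlapping groups, with a median of 534 CPM at LP day 1 and of 781 CPM at LP day 28 (log2 fold change 0.48, standard error 0.12, edgeR FDR 0.19).

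**Figure D2:**
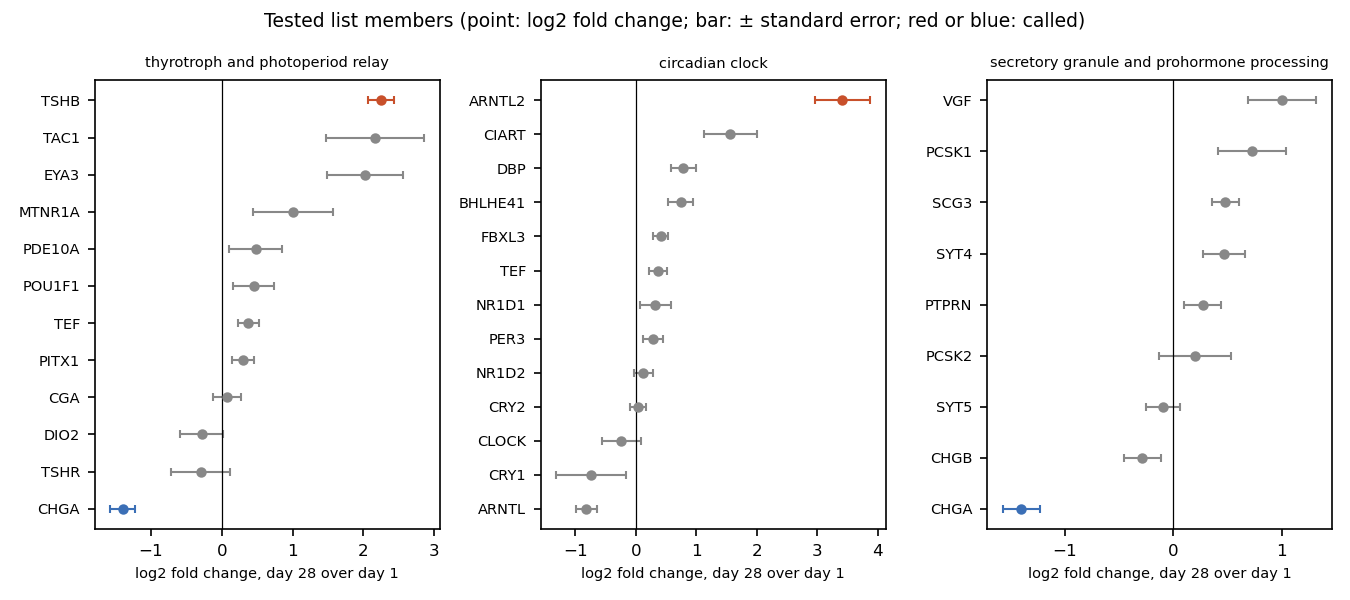
Each point is the log2 fold change of LP day 28 over LP day 1 for 1 tested member of the thyrotroph, circadian clock, or secretory granule list, and bars are ± 1 standard error. Among the members plotted, TSHB and ARNTL2 were called higher (red) and CHGA lower (blue).

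Called genes are described next by what their products are known to do, an order chosen after the calls, with no list fixed or tested for it. CYP4V2 (ENSOARG00000008195), a fatty acid omega-hydroxylase, had 59.0, 67.8, and 96.9 CPM as lowest, median, and highest at LP day 1, and 149, 232, and 242 CPM at LP day 28. No sample overlapped, and CYP4V2 rose 2.91-fold (log2 fold change 1.54, standard error 0.15, edgeR FDR 7.70e-06). GPLD1 (ENSOARG00000006871), the phospholipase D that cleaves glycosylphosphatidylinositol anchors, went from 16.7, 30.9, and 43.6 CPM to 87.0, 110, and 170 CPM, a 4.16-fold rise without overlap (log2 fold change 2.06, standard error 0.22, edgeR FDR 3.77e-05). The efflux transporter gene ABCG2 (ENSOARG00000001914) was nearly even at LP day 1, with 61.9 to 67.1 CPM around a median of 63.4, and spread from 88.5 to 364 CPM around a median of 200 at LP day 28. It rose 3.28-fold (log2 fold change 1.71, standard error 0.22, edgeR FDR 2.89e-04). CYP4F22, a hydroxylase of very long fatty acids, had 1.01 to 5.96 CPM with a median of 2.01 at LP day 1 and 5.05 to 14.5 CPM with a median of 11.3 at LP day 28, with a slight overlap (log2 fold change 2.46, standard error 0.38, edgeR FDR 0.0029). Its highest LP day 1 value came from sample 4, in which 5.96 CPM is under the level of 3 counts. The call of CYP4F22 was lost with limma voom (FDR 0.064). ATP8B4, a putative lipid flippase of the P4-ATPase family, had 1.89 to 8.97 CPM at LP day 1 and 9.42 to 50.8 CPM at LP day 28 (log2 fold change 2.10, standard error 0.38, edgeR FDR 0.017), and its call was lost without LP day 1 sample 3 (FDR 0.056). The ATP8B4 call was also lost with limma voom or robust estimation of the dispersion, and its highest FDR over all fits was 0.15. TMCO3, a membrane protein related to cation exchangers, showed a smaller rise without overlap, from 123 to 164 CPM at LP day 1 to 178 to 254 CPM at LP day 28 (log2 fold change 0.64, standard error 0.11, edgeR FDR 0.0095). With library size as the only scaling, or with all 23 samples in 1 fit, TMCO3 was not called (FDR up to 0.19). The acyl-CoA synthetase gene ACSL4 is described with the sample numbers.

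GNPTAB, which encodes subunits of the Golgi enzyme that marks lysosomal enzymes with mannose 6-phosphate, had 62.5 to 107 CPM at LP day 1 and 130 to 224 CPM at LP day 28. The groups did not overlap (log2 fold change 0.91, standard error 0.15, edgeR FDR 0.0067). ERMP1, a metallopeptidase of the endoplasmic reticulum (ER), had 27.8 to 36.2 CPM at LP day 1 and 45.1 to 97.1 CPM at LP day 28 (log2 fold change 0.96, standard error 0.19, edgeR FDR 0.039). Its call was lost with LP day 1 samples 3 and 4 summed (FDR 0.086), and in 7 of 12 fits that each left out 1 sample, those without LP day 1 samples 1, 3, 4, 5, or 6 or LP day 28 samples 2 or 6 (FDR up to 0.11). The ERMP1 call was also lost with library size as the only scaling or with limma voom, and its highest FDR over all fits was 0.15. In the study's own assignment of listed genes to categories, 156 tested genes fall under ER, Golgi, and transport. Of these, 7 were called, all higher, or 4.49%, against 2.85% of the 1124 tested genes in the study's table. That table was drawn up from comparisons that included these samples, and all 32 called genes are in it, so its categories are not independent evidence. RPN2, a subunit of the ER enzyme that attaches sugar chains to proteins, was in a list of ER and Golgi secretory machinery, of which only 2 of 47 genes had a paired symbol, and neither was called. RPN2 had 355 to 551 CPM at LP day 1 and 577 to 909 CPM at LP day 28 without overlap (log2 fold change 0.56, standard error 0.13, edgeR FDR 0.0999).

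**Figure D3:**
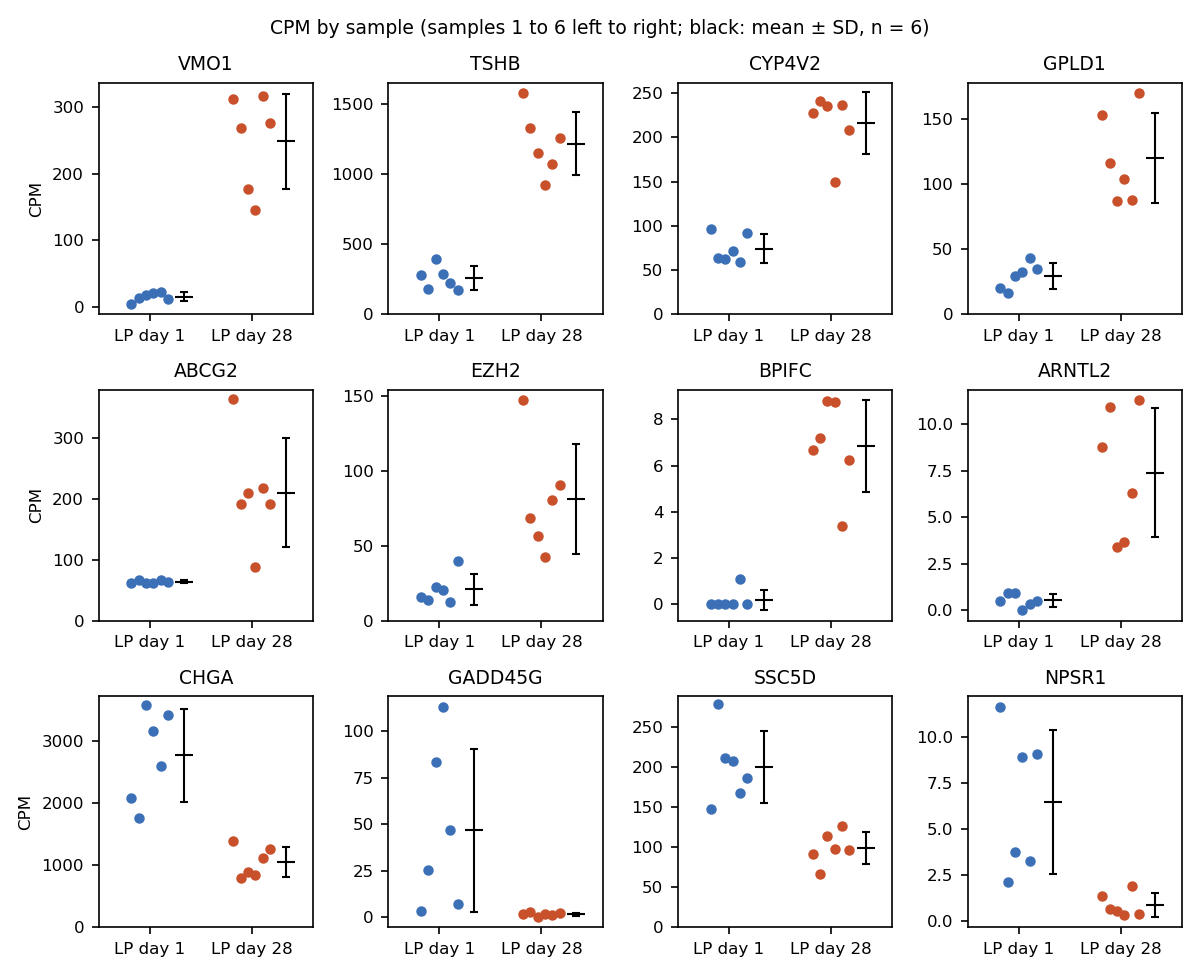
CPM of 12 called genes in LP day 1 samples 1 to 6 (blue) and LP day 28 samples 1 to 6 (red), with sample number increasing from left to right, and the mean ± SD of each group in black (n = 6). The groups do not overlap for any of these genes, and CPM is not scaled to gene length, so panels cannot be compared in height.

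Secreted and cell-surface proteins included the gene with the lowest p of the comparison. VMO1 (ENSOARG00000007112) is a homolog of a secreted protein of the outer vitelline membrane of bird eggs. It had 5.31, 16.4, and 23.8 CPM as lowest, median, and highest at LP day 1, and 145, 272, and 315 CPM at LP day 28. The highest LP day 1 sample was far below the lowest LP day 28 sample, and VMO1 rose 16.6-fold (log2 fold change 4.05, standard error 0.27, edgeR FDR 4.00e-08). BPIFC (ENSOARG00000018081), a member of the family of lipid-binding proteins around the bactericidal/permeability-increasing protein, was at 0 counts in 5 of 6 LP day 1 samples and at 3 counts in LP day 1 sample 5. At LP day 28 it had 7 to 31 counts per sample, or 3.40 to 8.81 CPM. In LP day 1 sample 4, 3 counts stand for 8.94 CPM, so the 0 counts of that sample do not separate the days for BPIFC. The ratio of the summed counts, scaled for depth, was 35.9, with an exact 95% interval of 12 to 176 for counting error only (edgeR FDR 2.89e-04). KLKB1, plasma prekallikrein, had 0 counts in 3 LP day 1 samples, the shallow sample 4 among them. KLKB1 had at most 7 counts in the others and 16 to 38 counts at LP day 28. Its highest LP day 1 level was 2.53 CPM and its lowest LP day 28 level was 4.16 CPM (log2 fold change 3.21, standard error 0.55, edgeR FDR 0.0097). The call was lost with limma voom or with the sample number as a block (FDR up to 0.094).

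NTN4 and CNTN1 belong to the cues and adhesion molecules that guide axons. NTN4, the laminin-like netrin-4, had 7.69 to 14.9 CPM at LP day 1 and 19.9 to 29.6 CPM at LP day 28, without overlap (log2 fold change 1.01, standard error 0.19, edgeR FDR 0.027). Its call was lost without LP day 1 samples 3, 5, or 6 or LP day 28 samples 1, 3, 4, or 6 (FDR up to 0.097). The NTN4 call was also lost with library size as the only scaling, and its highest FDR over all fits was 0.13. In a list of 7 tested axon guidance genes NTN4 was the only one called. KAL1 and SEMA3D, members of the same list, had log2 fold changes of 0.86 (standard error 0.46, edgeR FDR 0.66) and -0.54 (standard error 0.42, edgeR FDR 0.80). CNTN1, the neural adhesion molecule contactin-1, had 151 to 241 CPM at LP day 1 and 221 to 446 CPM at LP day 28, and the groups overlapped (log2 fold change 0.79, standard error 0.16, edgeR FDR 0.044). CNTN1 was not called with LP day 1 samples 3 and 4 summed (FDR 0.14), nor in 9 of the 12 fits with 1 sample left out, all except those without LP day 1 sample 2 or LP day 28 samples 4 or 5 (FDR up to 0.14). Library size as the only scaling, another filter on low values, limma voom, and robust estimation also lost the CNTN1 call. Its highest FDR over all fits was 0.18.

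SPOCK2, the proteoglycan testican-2, had 252 to 372 CPM at LP day 1 and 419 to 605 CPM at LP day 28 (log2 fold change 0.63, standard error 0.12, edgeR FDR 0.025), and its call was lost without LP day 1 sample 3 or LP day 28 samples 1 or 6 (FDR up to 0.094). The SPOCK2 call was also lost with library size as the only scaling, and its highest FDR over all fits was 0.28. F5, coagulation factor V, had 14.3 to 18.9 CPM at LP day 1 and 19.9 to 55.5 CPM at LP day 28 (log2 fold change 1.11, standard error 0.21, edgeR FDR 0.019), with the call lost without LP day 1 samples 1, 3, or 6 (FDR up to 0.065). F5 also lost its call with library size as the only scaling or with limma voom (FDR up to 0.10). For both genes the LP day 28 samples lay above all LP day 1 samples. SSC5D (ENSOARG00000001268), a secreted scavenger receptor cysteine-rich protein, was the only secreted protein other than CHGA among the 6 genes called lower. Its expression fell from 148, 198, and 278 CPM as lowest, median, and highest at LP day 1 to 66.7, 97.5, and 126 CPM at LP day 28 (log2 fold change -1.01, standard error 0.16, edgeR FDR 0.0029). The call was lost with all 23 samples in 1 fit (FDR 0.14). Among 20 tested genes in a list of extracellular matrix and adhesion none was called, and their median log2 fold change was 0.14. The collagen gene COL1A1 in that list had 369 to 501 CPM at LP day 1 and 479 to 805 CPM at LP day 28 (log2 fold change 0.46, standard error 0.12, edgeR FDR 0.21).

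ARNTL2 (ENSOARG00000019779), a partner of CLOCK like its relative ARNTL, was near the detection limit at LP day 1, with 0 to 3 counts per sample, or up to 0.947 CPM. It passed the filter on low values only through LP day 28, since no LP day 1 sample was above 1 CPM. At LP day 28 it had 11 to 38 counts, or 3.41, 7.54, and 11.3 CPM as lowest, median, and highest. The groups did not overlap (log2 fold change 3.42, standard error 0.46, edgeR FDR 6.88e-04), although LP day 1 sample 4, with 0 counts, has a level of 3 counts at 8.94 CPM. ARNTL itself lay on the other side, with 34.1, 47.1, and 66.7 CPM at LP day 1 against 21.2, 27.3, and 31.6 CPM at LP day 28. These groups did not overlap either, but the log2 fold change of -0.82 (standard error 0.17) did not pass (edgeR FDR 0.065). Of 13 tested genes in a list of the circadian clock, ARNTL2 was the only one called, and 10 had a positive log2 fold change. With 2.85% of the genes in the study's table called, nothing is read about the list from 1 call. DBP, an output factor of the clock, had 75.3 to 126 CPM at LP day 1 and 107 to 290 CPM at LP day 28 (log2 fold change 0.79, standard error 0.21, edgeR FDR 0.22). It split by sample number at LP day 28, with 224, 165, and 290 CPM in samples 1, 3, and 5 and 107, 133, and 133 CPM in samples 2, 4, and 6. CLOCK, CRY2, and NR1D2 had log2 fold changes of -0.24, 0.04, and 0.13, none of which passed.

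EZH2 (ENSOARG00000018856), the enzyme of Polycomb repressive complex 2 that methylates histone H3 at lysine 27, had 12.8, 18.4, and 39.9 CPM as lowest, median, and highest at LP day 1, and 42.4, 74.7, and 147 CPM at LP day 28. It rose 3.99-fold with no overlap, although LP day 1 sample 6 came close to LP day 28 sample 4 (log2 fold change 2.00, standard error 0.29, edgeR FDR 0.0023). Its call was lost with robust estimation of the dispersion (FDR 0.073). CHD1L, a chromatin remodeler, had 31.9 to 68.1 CPM at LP day 1 and 71.3 to 106 CPM at LP day 28, also without overlap (log2 fold change 1.01, standard error 0.17, edgeR FDR 0.0095). GADD45G (ENSOARG00000007786), a stress and growth arrest gene, had the most negative log2 fold change of all called genes. It had 3.72, 36.3, and 113 CPM as lowest, median, and highest at LP day 1, and 0.284, 1.65, and 2.74 CPM at LP day 28, where no sample had more than 8 counts. Its log2 fold change was -4.58 (standard error 0.69, edgeR FDR 0.0029), and the call was lost with robust estimation or with limma voom (FDR up to 0.27). Of 8 tested immediate early genes, GADD45G was the only one called, and EGR1 and NR4A1 had log2 fold changes of 0.17 and -0.03.

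The other called genes encode receptors, calcium-binding proteins, and enzymes. NPSR1 (ENSOARG00000005903), the neuropeptide S receptor gene, had 3 to 44 counts, or 2.17, 6.36, and 11.7 CPM, at LP day 1, and 1 to 6 counts, or 0.337, 0.627, and 1.94 CPM, at LP day 28. The log2 fold change was -2.76 (standard error 0.51, edgeR FDR 0.019), and the call was lost without LP day 1 samples 1 or 6 or LP day 28 samples 3, 4, or 6 (FDR up to 0.079). PTPRO, a receptor tyrosine phosphatase, had 28.1 to 39.8 CPM at LP day 1 and 16.5 to 21.7 CPM at LP day 28 without overlap (log2 fold change -0.82, standard error 0.15, edgeR FDR 0.019), and lost its call without sample 3 of either day (FDR up to 0.076). Its call was also lost with all 23 samples in 1 fit, the sample number as a block, or the CRY1 or PRL level as a covariate (FDR up to 0.31). BAIAP3, which acts in dense-core vesicle traffic, had 509 to 786 CPM at LP day 1 and 409 to 544 CPM at LP day 28 (log2 fold change -0.57, standard error 0.11, edgeR FDR 0.027). Its groups overlapped, and the call was lost in 8 of 12 fits with 1 sample left out, all except those without sample 2 or 4 of LP day 1 or sample 4 or 5 of LP day 28 (FDR up to 0.10). The BAIAP3 call was also lost with all 23 samples in 1 fit, the sample number as a block, or an exact test on a common dispersion. CALB1, the calcium buffer calbindin, had 0 to 7 counts, or up to 1.86 CPM, at LP day 1 and 4 to 60 counts, or 1.37 to 13.9 CPM, at LP day 28 (log2 fold change 2.88, standard error 0.57, edgeR FDR 0.034). CALB1 was not called with LP day 1 samples 3 and 4 summed (FDR 0.066), nor without LP day 1 samples 3, 4, 5, or 6 or LP day 28 samples 1, 4, or 6 (FDR up to 0.13). The CALB1 call was also lost with limma voom, and its highest FDR over all fits was 0.22. CIB2, a calcium and integrin binding protein, had 16.2 to 33.9 CPM at LP day 1 and 34.3 to 50.7 CPM at LP day 28, a narrow gap without overlap (log2 fold change 0.95, standard error 0.17, edgeR FDR 0.017). With library size as the only scaling, CIB2 was not called (FDR 0.11). A gene without a symbol here, ENSOARG00000018841, had 16.9 to 58.6 CPM at LP day 1 and 45.1 to 176 CPM at LP day 28 (log2 fold change 1.86, standard error 0.32, edgeR FDR 0.0095). Its groups overlapped, and the call was lost with limma voom or robust estimation (FDR up to 0.20).

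LP day 7 lay between LP day 1 and LP day 28 in mean log2(CPM + 0.5) for 31 of the 32 called genes, and for 18 genes it had passed the midpoint, DCT included. At the median, 53.5% of the difference was present at LP day 7. The genes were called for LP days 1 and 28 lying apart, which favors another day falling between them. The share over all tested genes was not computed, so no time course is read from these counts. PTPRO and BAIAP3 were at the low end, with 6.13% and 5.23%, and CNTN1 was at 85.4%. The exception was DCT (ENSOARG00000000618), an enzyme of melanin synthesis, which was higher at LP day 7 than on either day compared. As lowest, median, and highest, DCT had 13.1, 27.5, and 54.2 CPM at LP day 1. At LP day 7 these values were 159, 229, and 337 CPM, and at LP day 28 they were 50, 76.0, and 110 CPM. The LP day 1 and LP day 28 groups overlapped slightly (log2 fold change 1.43, standard error 0.27, edgeR FDR 0.025). The call was lost with LP day 1 samples 3 and 4 summed (FDR 0.054) and without LP day 1 samples 1, 3, or 6 or LP day 28 samples 2, 4, or 6 (FDR up to 0.090). Robust estimation and all 23 samples in 1 fit also lost the DCT call, and its highest FDR over all fits was 0.20. SHH, which encodes the morphogen sonic hedgehog, also had its highest levels at LP day 7, at 65.4 to 105 CPM. It had 18.2 to 62.5 CPM at LP day 1 and 22.3 to 55.8 CPM at LP day 28 (log2 fold change 0.13, standard error 0.29, edgeR FDR 0.95). LP day 28 and SP samples did not overlap for 24 of the 32 genes, against 1.98% of all tested genes, and LP day 1 and SP samples did not overlap for 0 of the 32, against 0.223%. The 32 genes were chosen for LP day 28 lying away from LP day 1, so nothing is read from these counts. These LP day 7 and SP levels are given with no test.

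**Figure D4:**
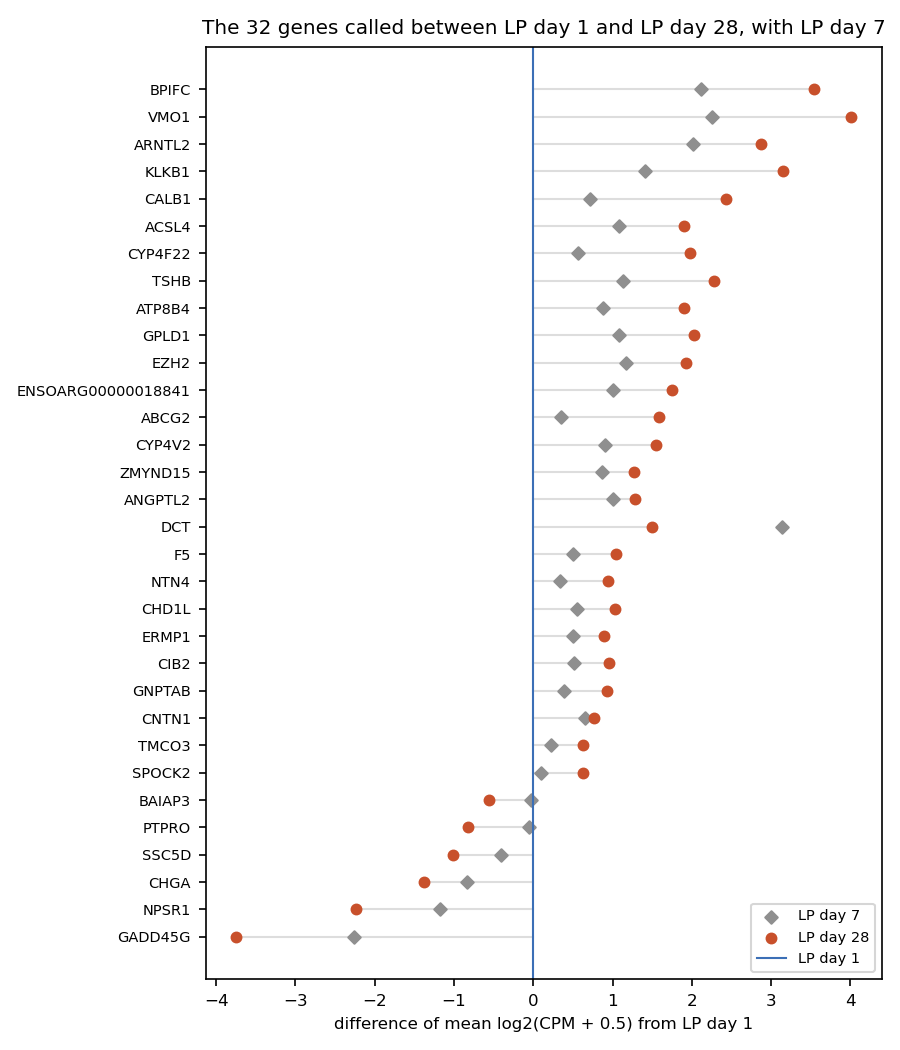
For each of the 32 called genes, the mean log2(CPM + 0.5) at LP day 7 (gray diamond) and LP day 28 (red circle) is shown as a difference from LP day 1 (blue line at 0), over 6 samples a day. LP day 7 falls between the other days for 31 genes, and DCT at LP day 7 lies beyond LP day 28. The genes were chosen for LP days 1 and 28 lying apart.

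Some genes followed the sample number in the labels. Among LP day 28 samples, ACSL4 (ENSOARG00000017954), an acyl-CoA synthetase with a preference for arachidonic acid, had 1508, 866, and 1284 CPM in samples 1, 3, and 5 and 171, 113, and 163 CPM in samples 2, 4, and 6. At LP day 1 it had 78.4, 104, and 174 CPM as lowest, median, and highest, so that the even LP day 28 samples were within the LP day 1 range and the odd ones far above it. ACSL4 was called (log2 fold change 2.52, standard error 0.52, edgeR FDR 0.044), but not with LP day 1 samples 3 and 4 summed (FDR 0.15), and without any 1 of the LP day 1 samples or LP day 28 samples 1, 3, or 5 the call was lost (FDR up to 0.14). Of the 20 alternatives that did not leave out a sample, 11 lost the ACSL4 call (FDR up to 0.40). Odd against even sample number as a covariate was among them. EYA3 had 406, 123, and 473 CPM in LP day 28 samples 1, 3, and 5, and 37.7, 58.6, and 46.8 CPM in samples 2, 4, and 6. The odd-numbered samples were thus above and the even-numbered ones within the LP day 1 range of EYA3.

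ANGPTL2, a secreted angiopoietin-like protein, had 60.3 to 118 CPM in odd and 24.6 to 42.7 CPM in even LP day 28 samples, against 17.5 to 33.4 CPM at LP day 1 (log2 fold change 1.5, standard error 0.30, edgeR FDR 0.039). ZMYND15, a zinc finger repressor of transcription, had 33.8 to 41.8 CPM in odd and 11.4 to 18.7 CPM in even LP day 28 samples, against 7.74 to 11.9 CPM at LP day 1 (log2 fold change 1.52, standard error 0.30, edgeR FDR 0.029). Both calls were lost with LP day 1 samples 3 and 4 summed (FDR 0.0857 and 0.0585). Both were also lost without LP day 1 samples 1, 3, or 4 or LP day 28 samples 1, 3, or 5, and in addition without LP day 1 sample 5 for ANGPTL2 and sample 6 for ZMYND15 (FDR up to 0.14 and 0.11). Of the 20 alternatives that did not leave out a sample, 12 lost the ANGPTL2 call and 5 the ZMYND15 call (FDR up to 0.26 and 0.22). Odd against even sample number as a covariate lost the call of ANGPTL2 but not of ZMYND15. Over the 32 called genes, odd LP day 28 samples were all above the even ones for 5 (ABCG2, TMCO3, ZMYND15, ANGPTL2, and ACSL4) and all below for 2 (GADD45G and DCT). Over all tested genes the shares were 7.15% and 6.88%.

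CRY1, a repressor of the clock whose level cycles over the day, showed the same split at LP day 28, with 29.3, 28.7, and 17.0 CPM in samples 1, 3, and 5 and 242, 138, and 156 CPM in samples 2, 4, and 6. At LP day 1 the low samples were 1 and 6, with 28.1 and 34.4 CPM, and samples 2 to 5 had 210 to 283 CPM. LP day 1 therefore held 2 samples low in CRY1 and LP day 28 held 3, and what the sample number marks is not given in the labels. GADD45G at LP day 1 was at 3.72 and 7.08 CPM in the samples low in CRY1 and at 25.7 to 113 CPM in the other 4, all above the LP day 28 maximum of 2.74 CPM. With the CRY1 level as a covariate, 27 genes were called, 25 of them among the 32. The calls lost were those of PTPRO, SPOCK2, NTN4, ZMYND15, CALB1, ANGPTL2, and ACSL4, at FDRs of 0.051 to 0.24.

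**Figure D5:**
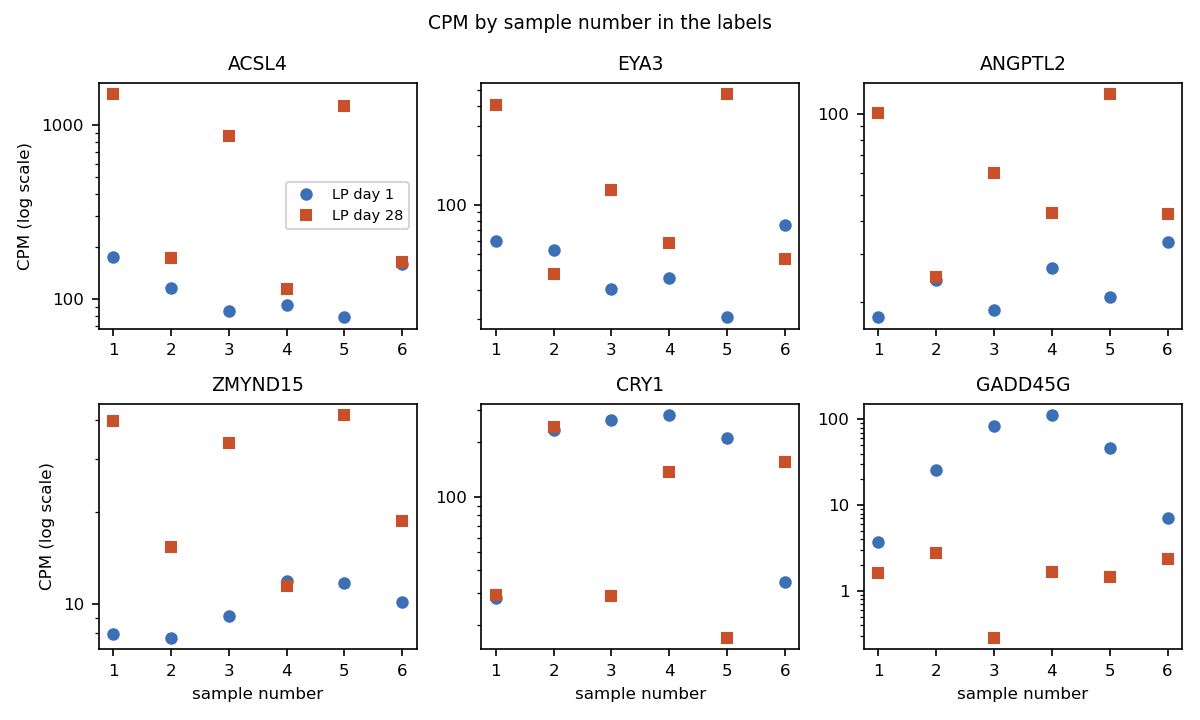
CPM on a log scale against the sample number in the labels, for LP day 1 (blue circles) and LP day 28 (red squares). ACSL4, EYA3, ANGPTL2, and ZMYND15 are higher in odd than in even LP day 28 samples, CRY1 is lower, and GADD45G is lower at LP day 28 than at LP day 1 in every sample.

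Of 15 tested genes that the study names for RNA-seq, TSHB was called higher, CHGA and NPSR1 were called lower, and the other 12 did not pass. PAQR6, SOX14, and C1orf110 had log2 fold changes of -0.53, -0.92, and -1.39 (standard errors 0.29, 0.41, and 0.47, edgeR FDRs 0.67, 0.59, and 0.40). The Wnt inhibitor gene WIF1, the adhesion receptor gene GPR56, the proteoglycan gene NCAN, and the cartilage collagen gene COL2A1 had edgeR FDRs of 0.78, 0.97, 0.72, and 0.92. DNAH8, with at most 7 counts in any of the 12 samples, was below the minimum for testing. AGER, the receptor for advanced glycation end products, had 10.5, 18.4, and 26.8 CPM at LP day 1 against 6.31, 10.1, and 10.5 CPM at LP day 28 (log2 fold change -0.87, standard error 0.21, edgeR FDR 0.16). BFSP2, an intermediate filament protein known from the lens, had 11.4, 18.1, and 35.7 CPM at LP day 1 against 3.90, 7.12, and 13.3 CPM at LP day 28 (log2 fold change -1.16, standard error 0.29, edgeR FDR 0.17). Both had slight overlaps. The remaining genes with a symbol and the lowest p among negative changes were KLHDC8B, NLRP12, FAM171A2, COL9A3, NOV, and TEKT2, with log2 fold changes of -0.50 to -1.26 and edgeR FDRs of 0.0998 to 0.26. KLHDC8B and FAM171A2 did not overlap between the groups.

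Markers of other cells were compared in the same samples. None of 9 tested pars distalis genes was called, and their summed level ranged from 46554 to 268636 CPM at LP day 1 and from 74713 to 272781 CPM at LP day 28. PRL was the largest member of this sum in every sample, and 4 of the 9 genes had a positive log2 fold change. The gonadotropin gene LHB had 1559 to 8931 CPM at LP day 1 and 2254 to 4238 CPM at LP day 28. For FSHB these ranges were 147 to 1038 CPM and 204 to 631 CPM. With the PRL level as a covariate, 26 genes were called, 20 of them among the 32. The calls lost were those of CHD1L, ATP8B4, PTPRO, NPSR1, DCT, NTN4, ZMYND15, CALB1, ERMP1, ANGPTL2, ACSL4, and CNTN1, at FDRs of 0.051 to 0.27. GFAP and MBP, markers of astroglia and myelin, were at 640 and 61.9 CPM in LP day 1 sample 1 and at 837 and 274 CPM in LP day 1 sample 5, against at most 416 and 62.3 CPM at LP day 28, and neither was called (edgeR FDR 0.92 and 0.65). With the GFAP level as a covariate, 57 genes were called, among them all 32. Of 14 tested interferon-induced genes none was called, and their summed level reached 1081 CPM in LP day 1 sample 5 against at most 378 CPM at LP day 28. The interferon-induced MX2 was at 0 counts in LP day 1 samples 3 and 4 and at 11.1 to 27.8 CPM in the other LP day 1 samples. None of 4 tested folliculostellate, 5 fibroblast, 2 neuronal, or 2 immune marker genes was called. Their summed levels overlapped between the days, except for the immune genes PTPRC and CD4, whose sum was 26.8 to 35.7 CPM at LP day 1 and 39.0 to 108 CPM at LP day 28. The part of these cells in the results was not tested beyond these covariates. The 4 tested cell division genes MKI67, TOP2A, CCNB2, and BUB1B had positive log2 fold changes of 0.55 to 0.85, none of which passed (edgeR FDR 0.58 to 0.75). Lists of heat shock, endothelial, and red blood cell genes had no member with a paired symbol.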

How the data were processed

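The authors deposited whole-number read counts for each Ensembl sheep gene, and all 23 tables hold the same 25197 genes. Per the labels, Bowtie and HTSeq were used with the assembly Oar_v3.1, whereas the file headers have the form that featureCounts writes, and these sources do not settle the program. Strand use in counting is not given in the sources used here, so overlapping and antisense genes cannot be told apart. Groups were taken from the sample titles. The 12 samples of LP days 1 and 28 were normalized by TMM, and genes were kept if over 1 CPM in 6 or more samples and tested with edgeR 4.0.16 in R 4.3.3 (quasi-likelihood test, two-sided, Benjamini-Hochberg FDR under 0.05). Standard errors are the absolute log2 fold change over the square root of F. CPM levels were TMM normalized over all 23 samples. With 3 counts as the lowest detectable level, depth limits genes under about 1.52 CPM, or 8.94 CPM in LP day 1 sample 4.

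Symbols were paired with identifiers through the study's gene tables, which give 1256 genes a symbol, 1070 of the tested genes (7.22%), and 28 symbols stand on more than 1 identifier. These are genes the study listed, partly from these samples. No genome of the build was used here, so no positions or sequences are given. Members and gene lists were chosen with earlier results of these data known. Named by rule were up to 15 genes with a symbol in each direction by lowest FDR, called list members, the genes the study names for RNA-seq, and genes followed across LPs. The 8 called genes outside the rule (F5, SPOCK2, ZMYND15, ERMP1, ANGPTL2, ACSL4, CNTN1, and ENSOARG00000018841) were named after their values were seen, as were list members given as examples to show a check of tissue or time. No identifier was paired with CDK6, CDC45, CDC25C, or CDT1, which the study also names. The code was tested on simulated data with 200 changed genes. There the quasi-likelihood test at an FDR under 0.05 made 180 calls, of which 10% were unchanged genes. It recovered 71% of 2-fold and 91% of 4-fold changes. Alternatives were other normalizations and filters, DESeq2 1.42.0, exact tests, limma 3.58.1 with voom, robust estimation, all groups in 1 fit, PRL left out, sample number or its parity, samples 3 and 4 summed, a stricter FDR, and each sample left out. Samples 1 to 3 against samples 4 to 6 of each group, a split that the labels do not name as a batch, was also used as a covariate. This split and the CRY1, PRL, and GFAP levels as covariates were chosen after seeing the data.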

Additional observations from a re-analysis of the deposited data

Results flagged for a closer look

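A sample was taken to stand apart where its gap to the nearest sample of its group was more than Dixon's 95% critical share of the range of the 6 samples. This happened in 10 of 112 groups of values checked (8.93%), and chance alone is known to give about 1 in 20. At LP day 1, BPIFC reached 1.10 CPM in sample 5, the only sample with counts, EZH2 was highest in sample 6 at 39.9 CPM, CYP4F22 in sample 4 at 5.96 CPM, and CHD1L in sample 5 at 68.1 CPM. Each of these values moves the LP day 1 group toward LP day 28. At LP day 28, CYP4V2 was lowest in sample 4 at 149 CPM, and AGER in sample 5 at 6.31 CPM. The highest values that stood apart at LP day 28 were 50.8 CPM of ATP8B4 in sample 1, 51.3 CPM of NOV in sample 2, 29.6 CPM of NTN4 in sample 4, and 213 CPM of WIF1 in sample 6. No sample stood apart in total counts by this measure.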

How the results depend on the processing

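The 32 calls became 63 with DESeq2, 83 with an exact test on gene-wise dispersions, 262 with the same test on a common dispersion, 21 with limma voom, 57 with GFAP as a covariate, and 17 at an FDR under 0.01, and the cause was not tested. With the common dispersion 63% of calls were higher at LP day 28, against 81.2% of the 32. The other settings gave 25 to 37 calls, with 20 to 32 of the 32 genes among them. Leaving out each sample in turn gave 19 to 59 calls. VMO1, TSHB, CYP4V2, GPLD1, CHGA, ABCG2, BPIFC, and GNPTAB were called in every fit that tested them. ARNTL2 was called wherever tested, but it was tested in only 6 of the 12 fits with 1 sample left out, since it falls under the filter without any 1 LP day 28 sample. The other 23 lost the call in at least 1 fit, while all 32 kept their direction where tested. The sample number as a replicate block gave 37 calls, 33 higher and 4 lower, with 27 of the 32 among them. Same-numbered samples did not deviate together (correlations of -0.045 to 0.13, and 1 of 6 numbers correlated best with its own), so the block pairs nothing. Among genes that were not called, the log2 fold change turned to -0.0389 for CGA with library size only, to 1.11 and 0.00581 for MX2 with limma voom and the replicate block, and to 0.144 for GPR56 with PRL as a covariate. Leaving out 1 sample moved it between -0.0778 and 0.181 for CGA, between -0.0240 and 0.366 for SHH, and between -0.225 and 0.00193 for GPR56. Genes near 3 counts, such as BPIFC, KLKB1, ARNTL2, CALB1, and NPSR1, are limited by depth.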
